A study of Mus musculus with 36 samples.

Results

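Nephron progenitor regulators were followed across fetal kidneys, adult kidneys and tumors of 3 sites in mice that model the renal cell carcinoma driven by TFE3 fusions. The set holds 9 genes chosen by symbol for their known place in the progenitor pool of the developing kidney, Six2, Cited1, Eya1, Osr1, Sall1, Meox1, Gdnf, Crym and Tmem100, out of 53379 genes in the deposited count tables. The series comprised 36 RNA libraries of formalin-fixed, paraffin-embedded tissue. In adult animals, a Cre recombinase under the Sglt2 promoter, which is active in proximal tubule cells, removed a stop cassette from 1 allele of the ASPSCR1-TFE3 fusion (genotype Sglt2-Cre; ASPSCR1-TFE3 LSL/+). From these 6 mice came kidney tumors (11 libraries), tumors behind the eye, called retro-orbital (4), tumors of the brain (3) and non-transformed kidney (4). The 3 Sglt2-Cre mice without the fusion allele gave 6 control kidney libraries. In fetuses, Cre under the Pax8 promoter, which is active in the nephron lineage, was used with the same allele (Pax8-Cre; ASPSCR1-TFE3 LSL/+) and gave 5 kidneys called dysmorphic, next to 3 control fetal kidneys. The labels name the fetal controls Pax8-Cre, whereas the text of the series allows for either allele alone. The ages of the mice and fetuses were not given in the sources used here. Libraries of the same animal and tissue were summed, so that n counts animals.

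Nephrons form from a pool of mesenchymal progenitors, the cap mesenchyme, that surrounds each tip of the branching ureteric bud. The transcription factor Six2 holds these cells in the progenitor state, and Cited1, a transcriptional coregulator, marks its least committed cells. Osr1, Eya1 and Sall1 act early in the metanephric mesenchyme, where Eya1 works as a coactivator and phosphatase for proteins of the Six2 family and Sall1 is a zinc finger factor needed for outgrowth of the bud. Gdnf is the ligand that the mesenchyme sends to the receptor Ret on the bud. Meox1 is a homeobox factor of the mesenchyme, Crym encodes a protein that binds thyroid hormone, and Tmem100 encodes a small membrane protein that also belongs to the endothelium of developing vessels. In the mature kidney the progenitor pool is used up.

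RefSeq start-site windows (GRCm38.p6, 250 bases before to 50 after the start) were held for 4 of the 9 members, Six2, Cited1, Sall1 and Gdnf. MiT/TFE factors, the family of TFE3, are known to bind short E-box words, and CACGTG and CATGTG were searched on both strands. Of 32851 windows of this length, 7.15% held CACGTG and 14.2% held CATGTG. Among the 9 windows of the 4 members, a single word was found, a CATGTG at base -142 of the middle Cited1 start. The windows of Six2, the member with no count in adult control kidney, and of this Cited1 start, which belongs to a member that rose in kidney tumors, are printed 5′ to 3′ on the gene's strand, with the E-box word in capitals.
Six2, chr17:85688205-85688504, minus strand: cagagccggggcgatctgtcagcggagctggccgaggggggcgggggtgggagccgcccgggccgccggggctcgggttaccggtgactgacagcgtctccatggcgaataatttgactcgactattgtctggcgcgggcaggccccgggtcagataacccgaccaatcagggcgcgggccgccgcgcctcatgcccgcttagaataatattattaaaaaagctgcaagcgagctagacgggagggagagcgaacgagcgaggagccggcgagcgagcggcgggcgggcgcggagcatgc
Cited1, chrX:102251794-102252093, minus strand: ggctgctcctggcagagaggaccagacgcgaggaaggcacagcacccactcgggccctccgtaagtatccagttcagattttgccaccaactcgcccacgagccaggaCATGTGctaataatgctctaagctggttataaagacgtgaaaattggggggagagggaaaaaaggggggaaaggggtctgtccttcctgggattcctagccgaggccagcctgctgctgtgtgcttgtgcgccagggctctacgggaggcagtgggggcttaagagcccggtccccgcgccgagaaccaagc
The Six2 window held 37 CpG dinucleotides and the Cited1 window 14, compared to a median of 7 over all windows. These matches describe letters in the windows and say nothing of binding.

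Several libraries stood apart before any member was considered. Totals were 80205573 to 121415057 counts per library. Gpnmb, a known target of MiT/TFE factors, was 1.6 to 2.51 CPM (counts scaled to library size by TMM) in adult control kidneys and 2940 to 7215 CPM in kidney tumors, so the labels of these groups held. Among the control fetuses, fetus 3 was low in several kidney genes but not in all. Its Pax2 was 1.72 CPM against 70.9 and 31.4 CPM in the other two, its Pax8 was 2.05 CPM against 35.9 and 24.8 CPM, and its summed liver markers were 1156 CPM against 80.7 and 300.3 CPM. Its Lrp2 was 68.6 CPM against 894.7 and 374.1 CPM. Its 6 proximal tubule markers nevertheless summed to 1393 CPM against 1351 and 1149 CPM, of which Cubn, a receptor for protein uptake, gave 1234 CPM, and its kidney stroma markers summed to 378.6 CPM against 625.7 and 450.6 CPM. The dysmorphic kidneys were low in the same factors, with Pax2 from 0.124 CPM in fetus 4 to 16.8 CPM in fetus 2. Their 7 summed skeletal muscle markers ranged from 3686 to 10660 CPM, against 1584 to 1773 CPM in control fetuses and 1.18 to 6.89 CPM in adult control kidneys, and their 5 cartilage markers reached 2568 CPM in fetus 5. Every control and dysmorphic fetal sample therefore held muscle transcripts. In bulk tissue, fewer cells of a type and less RNA per cell cannot be told apart.

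**Figure D1:**
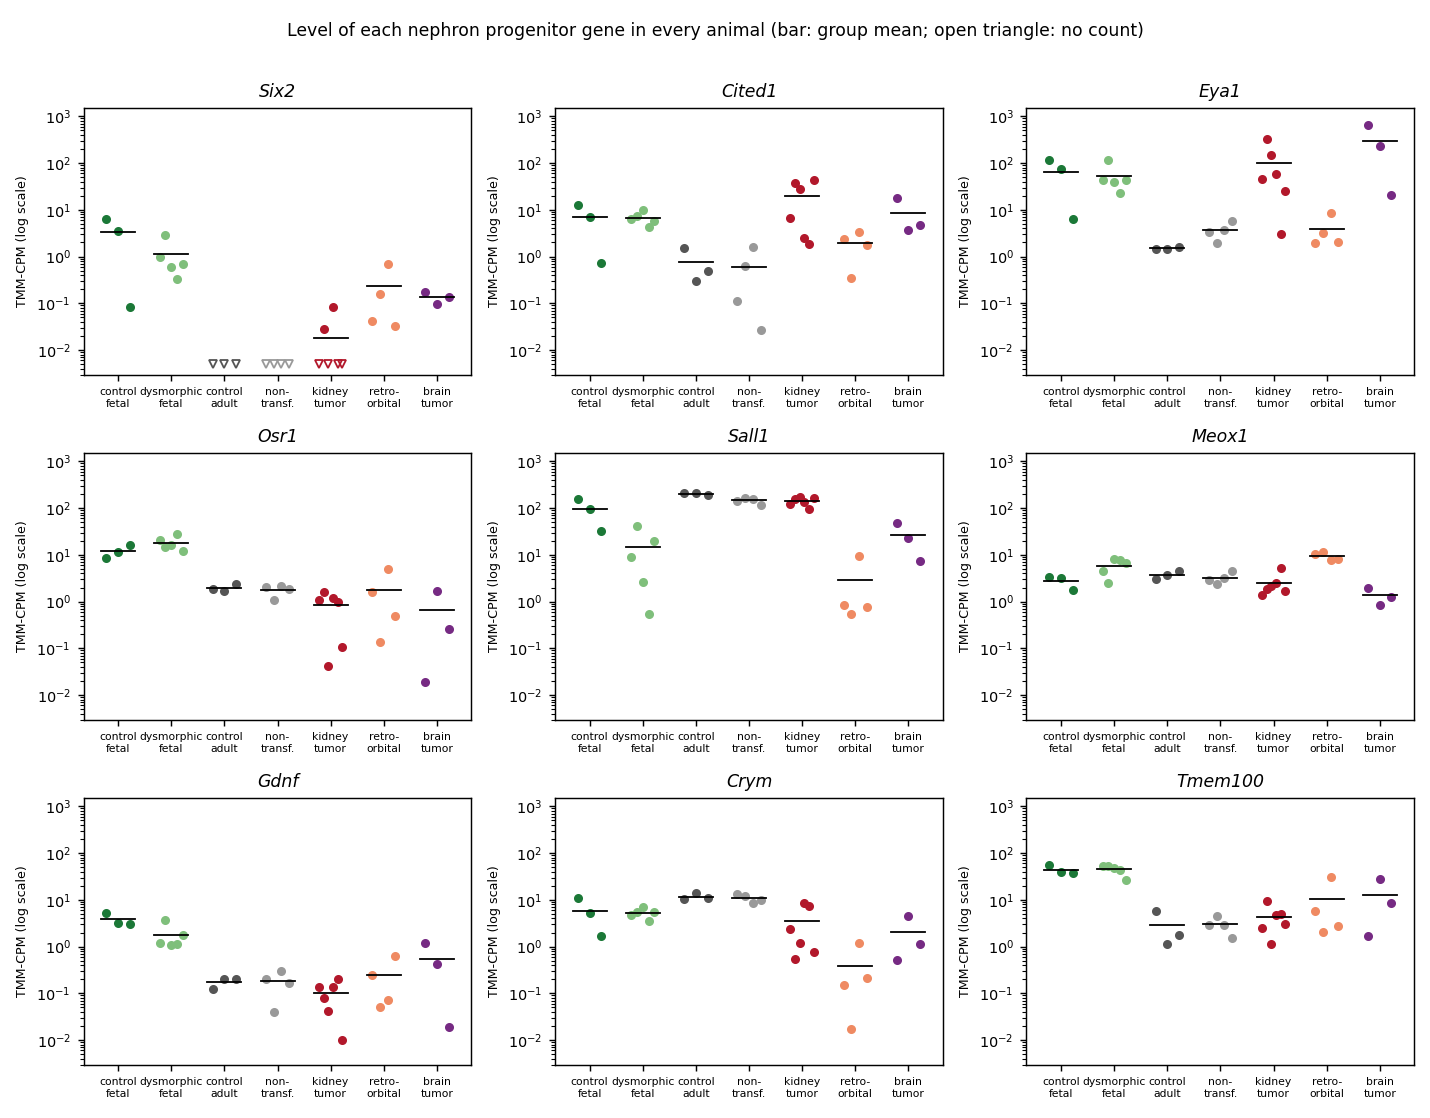
TMM-normalized CPM (log axis) of the 9 members in every animal of the 7 groups, with a bar at the group mean and an open triangle, drawn at a fixed height, where an animal had no count. Six2 had no count in any adult control or non-transformed kidney, while Eya1 and Cited1 lay above the controls in all 6 mice with kidney tumors.

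The first question was which members mark fetal kidney in these libraries. Control fetal kidneys were compared to adult control kidneys. These differ in age, Cre driver, count table and content of other tissues, effects that cannot be told apart. Of the 9 members, 6 were higher in fetal kidney, Six2, Cited1, Eya1, Osr1, Gdnf and Tmem100, and 0 were lower (edgeR quasi-likelihood test, adjusted p under 0.05). Over all 22859 genes tested, 25.1% were higher and 23.9% were lower. The median log2 fold change of the members was 3.27, also with Six2 set to its lower bound, compared to 0.03 for all genes. Sall1, Meox1 and Crym did not pass the test. Markers of other tissues moved as well. Called higher were 7 of 7 skeletal muscle genes (median 9.48 in log2) and 4 of 4 cartilage genes tested (5.89). Head and meningeal mesenchyme gave 7 of 8 higher (2.73), with sums of 1511 to 2099 CPM against 191 to 284.5 CPM in adults. Kidney stroma gave 5 of 7 higher and 1 lower, and 5 of 6 proximal tubule genes were lower. The part of these lists in the member levels was not tested.

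Six2 was detected in every fetus and in none of the 3 adult control mice. Its levels were 6.50, 3.59 and 0.0828 CPM in control fetuses 1, 2 and 3, and 0 in the controls, where 3 counts would be at most 0.0144 CPM. The fetal mean of 3.39 ± 3.21 CPM (SD, n = 3) was at least 236-fold higher than this floor per animal. Six2 passed the filter on low counts through the fetal group alone, so its call (edgeR adjusted p = 0.0178) adds nothing to these levels and leaves 5 called among the other members. The call was lost without control fetus 2 (edgeR adjusted p = 0.0553), and with counts halved, as for mates counted apart, Six2 did not pass the filter. The adult non-transformed kidneys of 4 fusion mice likewise had no Six2 count. Eya1 showed the same split at a higher level, with 115.3, 75.2 and 6.48 CPM in the fetuses against 1.43, 1.45 and 1.63 CPM in adult controls. The log2 fold change was 5.55 (SE 1.02, edgeR adjusted p = 0.00508). Control fetus 3 was the lowest for both genes, yet its Eya1 stayed above all adult controls.

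The ligand Gdnf was 5.15, 3.20 and 3.08 CPM in the control fetuses and 0.124, 0.199 and 0.2 CPM in adult controls, higher by 4.53 in log2 (SE 0.38, edgeR adjusted p = 0.000253). Osr1 was 8.57, 11.3 and 16.1 CPM in the fetuses and 1.68 to 2.32 CPM in adults, higher by 2.69 in log2 (SE 0.29, edgeR adjusted p = 0.000607), a call that was lost in a joint fit of all groups (2.66, SE 1.16, edgeR adjusted p = 0.0695). Neither gene was low in control fetus 3, in which Osr1 was highest. Tmem100 was 38.2 to 55.1 CPM in the fetuses and 1.13 to 5.73 CPM in adults (log2 fold change 4.02, SE 0.66, edgeR adjusted p = 0.00324).

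Cited1 passed the test narrowly, at 12.7, 7.19 and 0.712 CPM in the fetuses and 1.50, 0.305 and 0.48 CPM in adult controls. The groups overlapped, since fetus 3 lay below control mouse 1. Its log2 fold change of 3.27 (SE 1.10) had an edgeR adjusted p of 0.0458, and it stayed past the threshold in 1 of 6 fits that each left out an animal, the fit without fetus 3. Sall1 went the other way, with 153.6, 94 and 32.2 CPM in the fetuses below 207.5, 211.6 and 190 CPM in the adults. This difference of -1.03 (log2, SE 0.51) was not called (edgeR adjusted p = 0.14). Without fetus 3 it was -0.67 and was called (edgeR adjusted p = 0.0465), which brought the members called to 7. Without fetus 1, Sall1 was at -1.62 (edgeR adjusted p = 0.0251) and Crym at -1.69 (edgeR adjusted p = 0.0303), and both were called, while Cited1 was not. Sall1 was thus the member with high levels in adult kidney, where the progenitor factor Six2 was not detected.

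Levels of different genes were set side by side per kilobase of exon. In control fetal kidney Tmem100 was highest, at 25 CPM per kb, followed by Sall1 at 17.7, Eya1 at 8.41, Osr1 at 5.80 and Cited1 at 3.92 CPM per kb. Crym, Six2, Meox1 and Gdnf lay between 1.04 and 1.74 CPM per kb. In adult control kidney Sall1 led with 38.6 CPM per kb and Crym followed with 3.44 CPM per kb. The order among the lowest fetal members was not resolved, since the SD of Six2 nearly equaled its mean.

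The next question was whether kidney tumors with the fusion carry these genes. Of 8 members tested, 2 were higher in kidney tumors than in adult control kidneys, Cited1 and Eya1, and 0 were lower, against 12.5% higher and 6.51% lower among 23578 genes. Their rises were large and uneven between mice. The median over the 8 members was -0.55 (log2), compared to 0.05 for all genes, so the members did not move together. Six2 was filtered out as too low to test. Pigment cell markers were higher in 3 of 5 genes tested (median 7.78 in log2), with sums of 13.9 to 294.5 CPM against 0.684 to 1.01 CPM. Microglia markers were higher in 3 of 6 (median 1.17), with sums of 25.1 to 69.6 CPM against 12.5 to 14.7 CPM. No gene of either list was lower. The part of these lists in the member levels was not tested.

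Eya1 was 46.3, 322.5, 147.6, 57, 3.07 and 25 CPM in the kidney tumors of mice 1 to 6. Controls were 1.43 to 1.63 CPM. Every mouse lay above every control, and the tumor of mouse 5 was the only tumor sum below 20 CPM. The log2 fold change was 6.08 (SE 1.43, edgeR adjusted p = 0.0204). Cited1 was 6.81, 37.7, 28.1, 2.52, 1.89 and 43.5 CPM in mice 1 to 6 and 0.305 to 1.50 CPM in controls. The log2 fold change was 4.74 (SE 1.31, edgeR adjusted p = 0.0348), and here the tumors of mice 4 and 5 lay close to the controls. The tumors of mice 4 and 5 also had the highest summed proximal tubule markers, 7459 and 7425 CPM against 634 to 2385 CPM in the other tumors and 10880 to 11640 CPM in control kidneys. The part of remaining tubule tissue in these levels was not tested. Both calls rested on the small control group, since leaving out any control mouse left 0 members called by edgeR, with log2 fold changes from 4.38 to 5.70 for Cited1 and from 6.06 to 6.16 for Eya1. Leaving out fusion mouse 2, 3 or 6 ended the Cited1 call alone, with log2 fold changes of 4.48, 4.62 and 4.36.

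Six2 stayed at or near zero in kidney tumors. Mouse 4 had 16 counts (0.0827 CPM) and mouse 2 had 6 counts (0.0282 CPM), and the other 4 mice had none. These same tumors had the highest summed skeletal muscle markers, 190.7 CPM in mouse 4 and 137.1 CPM in mouse 2 against 3.44 to 29.2 CPM in the others, and mouse 4 had the most neuronal markers, 132.7 CPM against 5.77 to 23.6 CPM. Their part in the Six2 counts was not tested. Against the fetal mean of 3.39 CPM, the tumor mean was 0.0185 CPM, so Cited1 and Eya1 were raised in tumors in which Six2 was not detectable at this depth or nearly so.

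**Figure D2:**
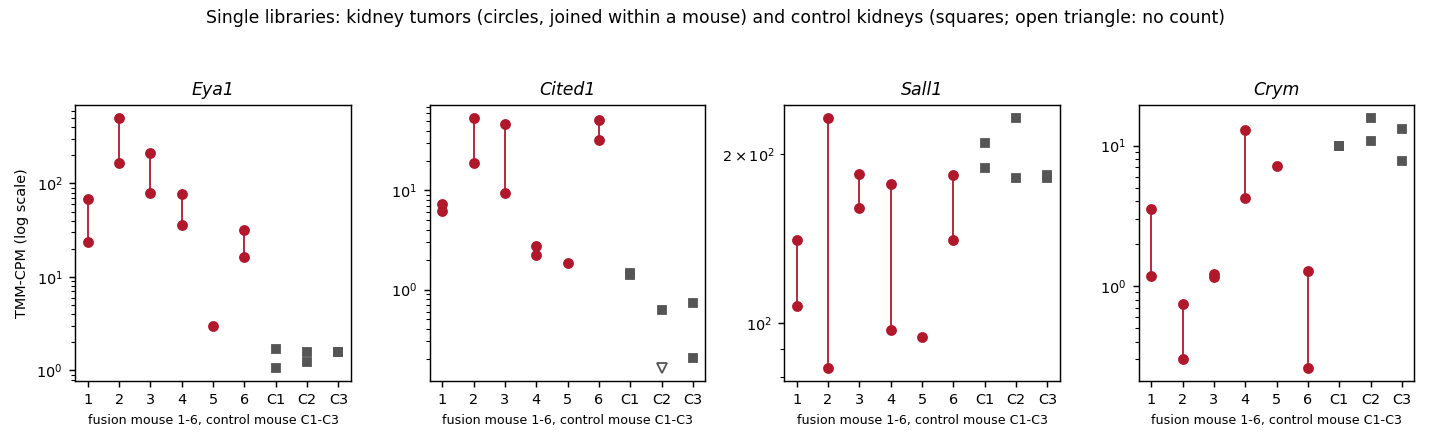
TMM-normalized CPM (log axes) of Eya1, Cited1, Sall1 and Crym in the 11 single kidney tumor libraries (circles, joined where a mouse gave 2) and the 6 control kidney libraries (squares, or an open triangle at a fixed height where a library had no count). Eya1 was above every control library in all 11 tumors and differed within mice, for example 501.5 and 165.3 CPM in mouse 2.

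Tumors of the same mouse could differ. In mouse 2, Eya1 was 501.5 CPM in tumor 1 and 165.3 CPM in tumor 2, while Cited1 was 19 CPM in tumor 1 and 53.7 CPM in tumor 2. The tumor with more Eya1 thus had less Cited1. In mouse 3 both genes were higher in tumor 1, at 213.7 CPM for Eya1 and 46.2 CPM for Cited1, than in tumor 2, at 78.9 and 9.50 CPM. In mouse 6 both were higher in tumor 2. Counts of the paired tumor libraries differed beyond sampling noise, with a chi-square per degree of freedom of 69 to 280.5, and so did those of the paired control kidney libraries, at 24.7 to 83.1.

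The other members gave values but no calls. Crym was 0.54 to 8.70 CPM in kidney tumors and 10.4 to 13.8 CPM in controls without overlap, a difference of -1.74 (log2, SE 0.81, edgeR adjusted p = 0.153). The highest Crym values, 8.70 and 7.31 CPM, were again those of mice 4 and 5. Sall1 was 96 to 174.4 CPM in the tumor sums of each mouse and 190 to 211.6 CPM in controls, also without overlap (difference -0.49, SE 0.19, edgeR adjusted p = 0.0934). Single libraries did overlap for both genes, as with Sall1 at 231.7 CPM in tumor 1 of mouse 2 and Crym at 13 CPM in tumor 1 of mouse 4. Osr1 split the tumors, with 0.042 and 0.109 CPM in mice 3 and 6 and 0.965 to 1.63 CPM in the others, all below the 1.68 to 2.32 CPM of controls (difference -1.21, SE 0.87, edgeR adjusted p = 0.338). Meox1, Gdnf and Tmem100 overlapped with the controls. Leaving out mouse 5, whose Meox1 of 5.25 CPM was the highest, moved the Meox1 difference from -0.61 to -0.93, and it was then called (edgeR adjusted p = 0.0325).

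Non-transformed kidney of the fusion mice gave a nearer reference. Of 8 members tested, the same 2 genes, Cited1 and Eya1, were higher in tumors and 0 were lower, with a background of 12.1% higher and 5.02% lower among 21930 genes. Cited1 was 0.0262 to 1.59 CPM in the 4 non-transformed kidneys, below all tumors (log2 fold change 5.05, SE 1.37, edgeR adjusted p = 0.0316). Eya1 was 1.93 to 5.81 CPM there, and overlapped with tumors only through mouse 5, in which it was 5.81 CPM in non-transformed kidney and 3.07 CPM in tumor (log2 fold change 4.75, SE 1.15, edgeR adjusted p = 0.0206). Paired within the 4 mice that gave both tissues, with mouse as a block, 0 members were called by edgeR. The differences kept their sign, at 4.66 for Cited1 (edgeR adjusted p = 0.0978) and 3.59 for Eya1 (edgeR adjusted p = 0.19). Without mouse 1 or mouse 3, 0 members were called by edgeR, at 4.88 and 4.95 for Cited1 and 4.85 and 4.40 for Eya1. Without mouse 2 or 6, Cited1 was not called (4.78 and 4.68), and without mouse 4, Eya1 was not (4.86).

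Non-transformed kidneys themselves were compared to adult controls. Among 21019 genes, 0.00952% were higher and 0% were lower, and 0 of 8 members were called by edgeR. At an unadjusted edgeR p under 0.05 there were 2, beside 2462 of the 21019 genes. DESeq2 called the same number, Eya1 and Sall1, and 493 genes in all. Eya1 was 3.27, 1.93, 3.66 and 5.81 CPM in mice 1, 3, 4 and 5, all above the control maximum of 1.63 CPM (log2 difference 1.34, SE 0.38, edgeR adjusted p = 0.252, DESeq2 adjusted p = 0.0181). Sall1 was 118.2 to 166.3 CPM, all below the control minimum of 190 CPM (difference -0.45, SE 0.11, edgeR adjusted p = 0.219, DESeq2 adjusted p = 0.049). Gpnmb was 110.9 to 462.2 CPM in these kidneys, compared to at most 2.51 CPM in controls. The part of fusion-bearing cells in these 2 differences was not tested.

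Tumor sites were then compared within the fusion mice. In retro-orbital tumors, 1 of 8 members was higher than in kidney tumors, Meox1, and 2 were lower, Sall1 and Eya1, with 8.26% higher and 9.45% lower among 22136 genes. Sall1 showed the widest gap, at 0.843, 0.538, 9.30 and 0.75 CPM in the retro-orbital tumors of mice 2, 3, 5 and 6 and 96 to 174.4 CPM in kidney tumors. The log2 fold change was -5.65 (SE 0.96, edgeR adjusted p = 0.00456), and -7.72 without mouse 5. The proximal tubule markers gave sums of 82.4 to 169.5 CPM in 3 retro-orbital tumors and 997.2 CPM in mouse 5 against 634 to 7459 CPM in kidney tumors and a median difference of -3.58 (log2, 0 of 6 genes called), and their part was not tested. Eya1 was 1.94, 3.15, 8.61 and 2.05 CPM, with a log2 fold change of -4.69 (its SE 1.20, edgeR adjusted p = 0.0239). The groups overlapped through the kidney tumor of mouse 5, and the call was lost without mouse 2, 3 or 6, at -3.63, -4.44 and -4.68.

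Meox1 was 10.4, 11.4, 7.87 and 8 CPM in retro-orbital tumors, above the 1.40 to 5.25 CPM of kidney tumors (log2 fold change 1.91, SE 0.35, edgeR adjusted p = 0.00612). It was also higher there than in any other adult sample. The 6 endothelial markers summed to 897.9 to 1325 CPM in retro-orbital tumors and 358.8 to 697.4 CPM in kidney tumors (2 of 6 genes called higher, median 0.70 in log2). The 8 markers of head and meningeal mesenchyme summed to 1163 to 1720 CPM against 395.2 to 989.2 CPM (4 of 8 called higher, median 2.12). The part of either list in the Meox1 level was not tested. Cited1 was 0.347 to 3.33 CPM and just missed the threshold (difference -3.39, SE 1.06, edgeR adjusted p = 0.0517). Crym was lowest here, at 0.0174 to 1.17 CPM, with a difference of -3.16 (SE 1.20, edgeR adjusted p = 0.0962). Both were called without mouse 5, Cited1 at -3.97 (edgeR adjusted p = 0.0433) and Crym at -4.39 (edgeR adjusted p = 0.0496). Six2 was 0.0422, 0.156, 0.692 and 0.0333 CPM in these tumors, too low to pass the filter, and again highest in mouse 5. Tmem100 was 31 CPM in mouse 5 and 2.09 to 5.80 CPM in the others. Paired with mouse as a block, Sall1 (-6.94, edgeR adjusted p = 0.026) and Meox1 (1.99, edgeR adjusted p = 0.0399) remained, and Eya1 did not (-4.25, edgeR adjusted p = 0.175).

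Brain tumors had the highest single Eya1 value of the series. Eya1 was 646.6, 226.6 and 21.2 CPM in the brain tumors of mice 1, 2 and 4, compared to 3.07 to 322.5 CPM in kidney tumors. This spread left the difference of 1.67 uncalled (log2, SE 1.20, edgeR adjusted p = 0.404). Of 9 members tested against kidney tumors, 0 were higher and 1 was lower, Sall1, with 4.54% higher and 4.20% lower among 23391 genes. Sall1 was 48, 23.4 and 7.27 CPM, below every kidney tumor (log2 fold change -2.34, SE 0.53, edgeR adjusted p = 0.0324). Summed proximal tubule markers were 268.8 to 726.3 CPM in brain tumors and 634 to 7459 CPM in kidney tumors, with 1 of 6 genes called lower and a median of -4.50 (log2), and their part in the Sall1 level was not tested. Paired within the 3 mice with both tumors, with mouse as a block, Sall1 was at -2.72 (edgeR adjusted p = 0.30) and 0 members were called by edgeR, as were 0 genes in all. The call was also lost without mouse 2, 3 or 6, at -2.23, -2.28 and -2.29. Six2 was 0.171, 0.0977 and 0.136 CPM, from 12 to 18 counts a sample, above all kidney tumors but not called (difference 2.85, SE 1.28, edgeR adjusted p = 0.18). The brain tumor of mouse 2 carried neuronal markers at 741.4 CPM in sum, against 92.5 and 109 CPM in the others, and the highest Tmem100, Crym and Osr1 of the 3, at 27.6, 4.46 and 1.66 CPM. The part of brain tissue in these levels was not tested.

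Between brain and retro-orbital tumors, 0 of 9 members were higher and 1 was lower, Meox1, with 0.395% higher and 1.34% lower among 21037 genes. Meox1 was 1.98, 0.847 and 1.24 CPM in brain tumors (log2 difference -2.75, SE 0.39, edgeR adjusted p = 0.0292). The call was lost without mouse 2, 3, 5 or 6, with differences of -2.46, -2.65, -2.82 and -2.85 and edgeR adjusted p from 0.0524 to 0.152, and held in 2 of 6 such fits. The endothelial markers summed to 188.2, 245.9 and 1213 CPM in the brain tumors of mice 1, 2 and 4, with 3 of 6 genes called lower than in retro-orbital tumors and a median of -2.14 (log2). Of the markers of head and meningeal mesenchyme, 2 of 8 were called lower, with a median of -2.41. The part of these lists in the Meox1 level was not tested. Eya1 differed without overlap, by 6.29 (log2, SE 1.19), and lay at the threshold with an edgeR adjusted p of 0.0521. DESeq2 called it with an adjusted p of 3.72e-08. Cited1 was 17.7, 3.70 and 4.77 CPM in brain tumors, again without overlap (difference 2.20, SE 0.83, edgeR adjusted p = 0.189).

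**Figure D3:**
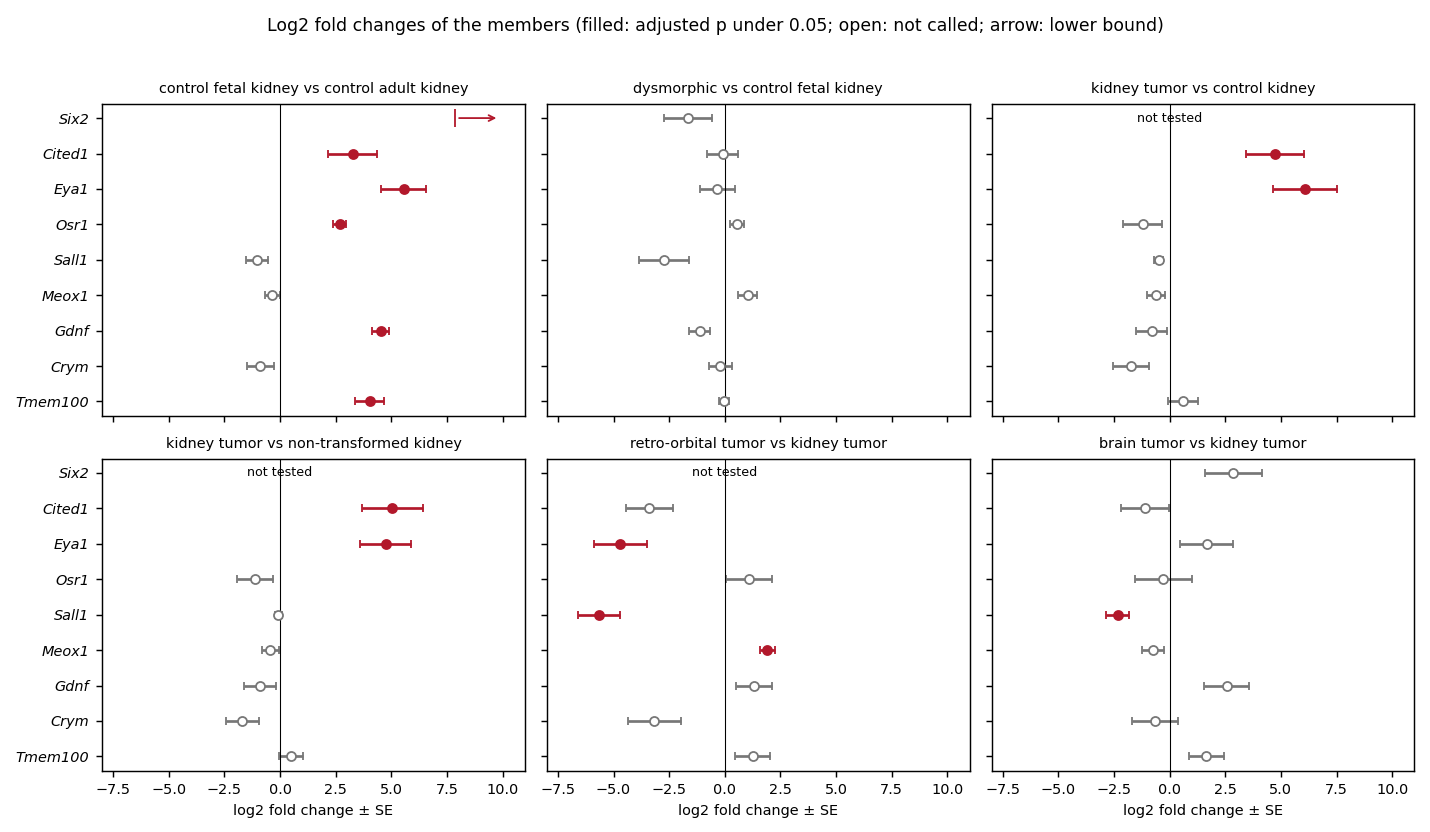
Log2 fold changes (x axis) with standard errors of the 9 members in 6 comparisons, filled red where the edgeR adjusted p was under 0.05, open where it was not, and an arrow from the lower bound where the reference had no count. Cited1 and Eya1 are the members called in kidney tumors against both kidney references, while Sall1 is called lower at both other tumor sites.

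The fetal model asked whether the fusion in the Pax8 lineage goes with a loss or gain of progenitor genes. Of 9 members, 0 were called by edgeR in dysmorphic compared to control fetal kidneys, 0 by DESeq2, and 3 had an unadjusted p under 0.05, Sall1, Meox1 and Gdnf. Among 22690 genes, 2.40% were higher and 0.269% were lower, and 4609 had an unadjusted edgeR p under 0.05. Six2 was 0.98, 2.93, 0.603, 0.338 and 0.709 CPM in dysmorphic fetuses 1 to 5, between the values of the control fetuses. The difference was -1.65 (log2, SE 1.07, edgeR adjusted p = 0.436), and -2.22 (edgeR adjusted p = 0.188) without control fetus 3. Without control fetus 1 it was -0.77, and with a block for the shared part of the sample names it was -0.81 (edgeR adjusted p = 0.675). Leaving out dysmorphic fetus 2 gave -2.42, the other end of the range. Six2 transcripts were thus detected in all 5 dysmorphic kidneys, and the part of other tissues in them was not tested.

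Sall1 was 9.16, 41.1, 2.58, 0.551 and 19.5 CPM in the dysmorphic kidneys and 153.6, 94 and 32.2 CPM in controls. The groups overlapped only through dysmorphic fetus 2 and control fetus 3, and the difference was -2.72 (SE 1.12, edgeR adjusted p = 0.224). Gdnf was 1.19, 3.80, 1.09, 1.13 and 1.79 CPM against 3.08 to 5.15 CPM in controls (difference -1.13, SE 0.47, edgeR adjusted p = 0.226). Without dysmorphic fetus 2, the Gdnf difference was -1.61 and was called (edgeR adjusted p = 0.0272). Meox1 was 2.46 to 8.01 CPM against 1.76 to 3.31 CPM (difference 1.03, SE 0.43, edgeR adjusted p = 0.225). Dysmorphic fetus 2, with the lowest Meox1, was also the one with the most Six2, Eya1, Sall1, Gdnf, Pax2 and Pax8.

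Eya1 was 44.3, 118.8, 39.9, 22.8 and 42.9 CPM in the dysmorphic kidneys, with fetus 2 just above the control maximum of 115.3 CPM and the others within the control range. Cited1 was 4.30 to 9.68 CPM, within the range of the control fetuses. Tmem100 was 26.7 to 52.6 CPM and Osr1 was 12.2 to 27.6 CPM, both with overlap. The skeletal muscle list moved with the dysmorphic group, with 6 of 7 genes higher and 0 lower. The proximal tubule markers summed to 22.4 to 859.2 CPM in dysmorphic and 1149 to 1393 CPM in control fetal kidneys, with a median difference of -2.92 (log2), and the 7 kidney stroma markers had a median of -0.90, with 0 genes called in either list. The 8 markers of head and meningeal mesenchyme summed to 2523 to 5679 CPM against 1511 to 2099 CPM, with 1 called higher. The part of these lists in the levels of the members, Sall1 included, was not tested. Sample names shared a first part between dysmorphic fetuses 1 to 3 and control fetuses 1 and 2, and another between the rest. With this name part as a block, 0 members were called by edgeR, and the small differences of Cited1, Eya1 and Crym turned to 0.43, 0.25 and 0.07.

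**Figure D4:**
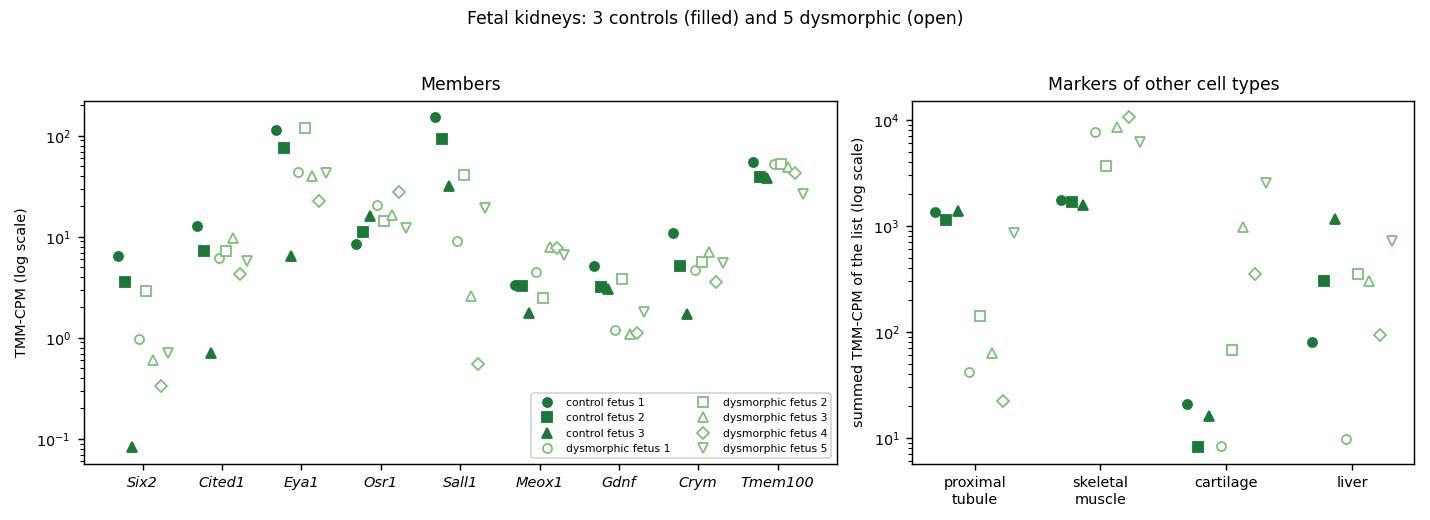
TMM-normalized CPM (log axes) in the 3 control (filled) and 5 dysmorphic (open) fetal kidneys, for the 9 members on the left and for summed markers of 4 other tissues on the right. Control fetus 3 was lowest for Six2, Cited1, Eya1 and Crym, and the dysmorphic kidneys had 3686 to 10660 CPM of skeletal muscle markers.

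The change with the fusion was set against the other model in a joint fit of the 4 groups. Of 9 members, 2 differed, both with the larger change in adult kidney tumors, and 0 differed the other way, with 6.87% and 2.07% of 24444 genes in each direction. Eya1 had a log2 fold change of 6.08 in kidney tumors and -0.33 in dysmorphic kidneys, and the difference was 6.48 (SE 1.60, edgeR adjusted p = 0.0216). For Cited1 the values were 4.74 and -0.10, and the difference was 4.90 (SE 1.45, edgeR adjusted p = 0.0477). The Cited1 difference was no longer called with RLE scaling (4.79, edgeR adjusted p = 0.0522), and it was past the threshold in 4 of 17 fits that each left out an animal, with values from 3.97 to 5.86. It was lost without any adult control mouse, fusion mouse 2, 3 or 6, any dysmorphic fetus, or control fetus 1 or 2. The Eya1 difference was lost without any adult control mouse or control fetus 1. In those fits it was 6.45 to 6.54 without a control mouse and 5.68 without control fetus 1. DESeq2 called both genes and also Meox1, at -1.72 (DESeq2 adjusted p = 0.0395). Age, Cre driver and tissue differ between the models and cannot be told apart.

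Other genes of the pathway were taken from fixed lists. Of 15 further cap mesenchyme genes, 14 were tested between fetal and adult control kidney, 7 were higher and 0 lower, with a median of 1.50 (log2), beside 25.1% higher and 23.9% lower among all genes. They included Wt1, a transcription factor of mesenchyme and podocytes, at 69.4 CPM in fetal and 22.6 CPM in adult kidney, and Ncam1, an adhesion molecule, at 121.7 and 5.56 CPM. In kidney tumors against controls, 3 of 14 were higher, Hoxa11 and Ncam1 among them, and 2 were lower, Six4 and Dapl1, beside 12.5% higher and 6.51% lower among all genes. Hoxa11, a patterning factor of the metanephros, was 13.8 CPM in kidney tumors, 2.40 CPM in control kidneys and 14 CPM in control fetal kidneys (log2 fold change in tumors 2.55, SE 0.61, edgeR adjusted p = 0.0216). It was 0.173 CPM in retro-orbital and 0.165 CPM in brain tumors, both called lower than in kidney tumors.

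On the bud side, the receptor Ret was 0.924 ± 0.115 CPM (SD, n = 3) in control kidneys, 72.3 ± 54.9 CPM (n = 6) in kidney tumors, 292.3 ± 51.8 CPM (n = 4) in retro-orbital tumors and 390.2 ± 305.3 CPM (n = 3) in brain tumors. It was called higher in kidney tumors than in controls (log2 fold change 6.30, SE 0.76, edgeR adjusted p = 0.001). Gdnf was 0.174 ± 0.0433 CPM (n = 3) in controls and 0.101 ± 0.0701 CPM (n = 6) in kidney tumors, and its difference of -0.80 (SE 0.69) was not called (edgeR adjusted p = 0.427). Its means were 0.252 CPM in retro-orbital and 0.549 CPM in brain tumors. Against kidney tumors, the brain difference of 2.56 was not called (edgeR adjusted p = 0.136), except in a joint fit of all groups (2.54, edgeR adjusted p = 0.0253). The coreceptor Gfra1 was 4.30 CPM in controls and 1.30 CPM in kidney tumors and was not called. Of the 10 GDNF-RET and ureteric bud genes, Ret was the only gene called in kidney tumors against controls, where 12.5% of all genes were higher. In fetal against adult control kidney 5 of the 10 were higher, beside 25.1% of all genes. Of 9 genes of the induced nephron, 8 were tested in kidney tumors, where Cdh4 was higher and Lhx1 and Pax8 were lower, beside 12.5% higher and 6.51% lower among all genes.

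The members followed different patterns over the 28 animal and tissue sums. The closest pairs in log2 CPM were Six2 with Tmem100 (Pearson r = 0.817), Osr1 with Tmem100 (r = 0.774) and Cited1 with Eya1 (r = 0.743), while Sall1 and Meox1 ran against each other (r = -0.613). These r values describe sums that share animals, groups and scaling. Among 25203 genes, Dact2 (r = 0.938) and Elovl2 (r = 0.919) were among those most like Sall1. Those most like Eya1 were Gm37573 (r = 0.875), Pou3f4 (r = 0.866) and Epha7 (r = 0.862), and those most like Cited1 were Ccdc155 (r = 0.844), Kpna3 (r = 0.814) and Fam72a (r = 0.812). Meox1 was most like Adcy4 (r = 0.880), Arhgap31 (r = 0.867) and Sox18 (r = 0.865). Osr1 was most like Synpo2 (r = 0.942), Six2 like Gm44882 (r = 0.926), Tmem100 like Cyp11a1 (r = 0.923), Crym like Ctnnal1 (r = 0.928) and Gdnf like Col24a1 (r = 0.891).

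In the GENCODE annotation of GRCm38, Six2 lies on chromosome 17 (85684277 to 85688274), Cited1 on chromosome X (102247381 to 102252181), Eya1 on chromosome 1 (14168954 to 14310235), Osr1 on chromosome 12 (9570116 to 9581500) and Sall1 on chromosome 8 (89027235 to 89044162). Meox1 lies on chromosome 11 (101877510 to 101894374) as does Tmem100 (90030348 to 90036508), Gdnf on chromosome 15 (7810846 to 7837575) and Crym on chromosome 7 (120186380 to 120202111). Values are counts over whole genes, so exons and isoforms were not resolved. Eya1, Osr1 and Meox1 overlap other annotated genes, whose highest count in any library was 12.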

How the data were processed

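The authors deposited raw counts per gene in 2 tables, with no normalization, from stranded total RNA libraries of fixed tissue without removal of ribosomal RNA. Per the labels, the processing notes name FastQC, MultiQC, Bowtie2, STAR 2.5.2a and GRCm38/mm10, while the counter and annotation are not given in the sources used here. Of 53379 genes, 53274 matched GENCODE mouse release M21. Counts from 1 to 20 were even in 79.04% to 84.33% of cases, as when both mates of a pair are counted, so halved counts were 1 alternative. Libraries of the same animal and tissue were summed. Each comparison used edgeR 4.0.16 (R 4.3.3), TMM scaling, filterByExpr, the quasi-likelihood F-test on its own groups and Benjamini-Hochberg adjustment over all genes tested. Levels came from a joint TMM scaling of 28 sums. Scripts were tested on simulated data. Alternatives were RLE scaling, DESeq2 1.42.0, no filter, a joint fit, blocks and leaving out animals. All 9 members and the lists were chosen with earlier results of these data known. Tissues of the same mouse pair the samples, and their deviations correlated at 0.019 to 0.149 for kidney tumors with non-transformed kidneys, 0.112 to 0.234 with retro-orbital tumors and -0.047 to -0.017 with brain tumors. Floors of 3 counts cover counting error only, whereas SD and SE values include differences between animals. Nothing in the labels says whether fetuses shared a litter. Some genes of the lists are not reported here.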

Additional observations from a re-analysis of the deposited data

Results flagged for a closer look

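Of 35 group levels that could be examined for a lone distant animal, 7 had one by Dixon's test. Chance flags about 1 in 20, or 1.75 here, for independent, normally distributed values. These levels were unlogged CPM and shared animals, and each flag was on the high side, so 7 cannot be read as an excess over 1.75. In dysmorphic fetal kidneys, fetus 2 stood above the others for Six2 (2.93 CPM, next 0.98 CPM), Eya1 (119 CPM, next 44.3 CPM) and Gdnf (3.8 CPM, next 1.79 CPM). In retro-orbital tumors, mouse 5 stood above the others for Sall1 (9.3 CPM, next 0.843 CPM) and Tmem100 (31 CPM, next 5.8 CPM). In kidney tumors, mouse 4 was apart for Six2 (0.0827 CPM, next 0.0282 CPM) and mouse 5 for Meox1 (5.25 CPM, next 2.48 CPM). Between the adult and fetal models, the change with the fusion differed for Cited1 by 4.90 (log2, edgeR adjusted p = 0.0477) and for Eya1 by 6.48 (edgeR adjusted p = 0.0216).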

How the results depend on the processing

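No member called by edgeR changed sign under any alternative run. The number of members called moved with DESeq2 to 2 in non-transformed against control kidney, 5 in retro-orbital against kidney tumors 3 in brain against retro-orbital tumors and 3 for the difference between the models, where Meox1 was added. In a joint fit of all groups it was 6 in retro-orbital against kidney tumors, with Cited1, Crym and Six2 added. Six2 did not pass the filter on these groups alone and entered this fit through other groups, so its call adds no support. The joint fit gave 3 in brain against retro-orbital tumors and 1 for the difference between the models, which was also 1 with RLE scaling and 1 without a filter. The joint fit also ended the Osr1 call in fetal against adult kidney (adjusted p = 0.0695), for 5 members called, and in brain against kidney tumors it ended the Sall1 call (0.0805) and added Gdnf (0.0253). With halved counts it was 2 in brain against retro-orbital tumors. With halved counts Six2 did not pass the filter in fetal against adult kidney, which left 5 members called. Paired with mouse as a block it was 0 in kidney tumors against non-transformed kidney and 0 in brain against kidney tumors. No block could be made for brain against retro-orbital tumors, which share mouse 2 alone. With the name part as a block, Cited1 (0.43), Eya1 (0.25) and Crym (0.07) turned in dysmorphic kidneys.

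Leaving out 1 animal at a time gave 4 to 7 members called in fetal against adult control kidney, 0 to 1 in dysmorphic kidneys, 0 to 3 in kidney tumors against controls, 0 to 2 against non-transformed kidney, 2 to 5 in retro-orbital against kidney tumors, 0 to 1 in brain against kidney tumors, 0 to 2 in brain against retro-orbital tumors and 0 to 3 for the difference between the models. Uncalled members that turned had these log2 ranges. In dysmorphic kidneys they were -0.63 to 0.70 for Cited1, -0.87 to 0.35 for Eya1, -0.64 to 0.57 for Crym and -0.13 to 0.16 for Tmem100. In non-transformed kidney they were -1.58 to 0.61 for Cited1, -0.19 to 0.10 for Osr1, -0.27 to 0.43 for Gdnf, -0.15 to 0.08 for Crym and -0.32 to 1.05 for Tmem100. In retro-orbital against kidney tumors they were -0.11 to 1.46 for Osr1 and -0.23 to 1.86 for Tmem100. In brain against kidney tumors they were -2.22 to 0.38 for Osr1 and -2.24 to 0.15 for Crym. In brain against retro-orbital tumors they were -1.14 to 0.83 for Six2, -0.12 to 2.18 for Gdnf and -1.19 to 1.89 for Tmem100. The Gdnf difference between the models ran from 0.00 to 0.81. The cause was not tested.

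Genes called in all were 605 by edgeR and 2731 by DESeq2 in dysmorphic kidneys, 4474 and 7079 in kidney tumors against controls, 3755 and 6004 against non-transformed kidney, 2 and 493 in non-transformed kidney, 3919 and 5996 in retro-orbital tumors, 2044 and 5115 in brain against kidney tumors, 364 and 3087 in brain against retro-orbital tumors, and 2185 and 3712 for the difference between the models. Low counts limit Six2, with at most 76 in any adult sample, and Gdnf, with 2 to 28 in the kidney tumor sums.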
